A study of Homo sapiens with 4 samples.

Results

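The integrated stress response genes described here are ATF4, ATF5, DDIT3, DDIT4, TRIB3, CHAC1, SESN2, ASNS, PPP1R15A and EIF2AK3. They were chosen by name, as well-known parts and targets of the ATF4 program, and are 10 of the 64252 Ensembl genes in the count table. RNA was sequenced from cells labelled NB4, an acute promyelocytic leukemia line, after 24 h with 8 μM dBET1 (2 libraries) or with an equal volume of its solvent DMSO (2 libraries). dBET1 is a bifunctional degrader that brings proteins of the BET bromodomain family to the ubiquitin ligase receptor CRBN. Neither group carries a genetic change beyond those of the line, and a single line, dose and time were measured. The libraries are numbered 1 and 2 within each group, and nothing in the labels says whether they came from separate cultures, so p-values measure only the spread between these libraries, which may be technical.

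In the integrated stress response, kinases that sense unfolded protein, missing amino acids, double-stranded RNA or heme shortage phosphorylate the initiation factor eIF2. Bulk protein synthesis then drops while the ATF4 mRNA, whose upstream reading frames otherwise hold it back, is translated more. The ATF4 protein pairs with other bZIP factors and switches on genes for amino acid supply, redox balance and feedback on the pathway itself. RNA counts of ATF4 and EIF2AK3 therefore do not measure the phosphorylation or translation steps, which were not measured here.

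The libraries held between 28019956 and 34685645 counts, and 17971 genes passed the filter on low counts, all 10 stress response genes among them. The labelled cell type was set against its markers, and the 5 promyelocyte markers, all genes of primary granules, added up to only 17 and 15 counts in the controls and 55 and 25 after treatment, with ELANE and CTSG at 0 in all 4 libraries. The 11 erythroid markers include globin genes, GATA1 and KLF1. They summed to 8709 and 9793 CPM with DMSO and to 5098 and 5041 CPM with dBET1. All 11 passed the test described next as lower, beside 27.6% of all tested genes (28.0% were higher). Of the promyelocyte markers only 2 were tested, and MPO passed as higher (log2 fold change 7.02), at no more than 55 counts in a library. The 8 lymphoid and monocyte markers summed to at most 21.5 CPM in any library. CPM are counts scaled to the TMM-normalized size of each library, and the part of the erythroid shift in the values below was not tested. Granule markers had few counts and erythroid markers many, so the markers do not bear out the promyelocyte label. What the cells are was not tested. In bulk RNA, fewer cells of a type and less RNA per cell cannot be told apart.

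After dBET1, ATF5 and TRIB3 fell to 0.331 and 0.364 of their DMSO level, PPP1R15A rose 2.22-fold, and the other 7 genes had ratios of 0.776 to 1.27. The quasi-likelihood test of edgeR, adjusted over all tested genes by the Benjamini-Hochberg method, called 3 of the 10 higher (PPP1R15A, SESN2 and ASNS) and 4 lower (ATF5, TRIB3, ATF4 and DDIT4), at an adjusted p under 0.05. Of all tested genes, 28.0% were higher and 27.6% were lower by the same rule. With a log2 fold change above 1 in size as well, 1 of the 10 was higher (16.9% of all tested genes) and 2 were lower (8.54%). The libraries of the groups did not overlap for any of the 10 genes on the TMM-normalized scale, with dBET1 above DMSO for 4 (41.9% of all tested genes) and below it for 6 (37.4%). The median log2 fold change was -0.23, beside 0.048 over all tested genes. The counts of called genes are near the background shares, so the genes are described below one at a time, in the order of their roles.

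**Figure D1:**
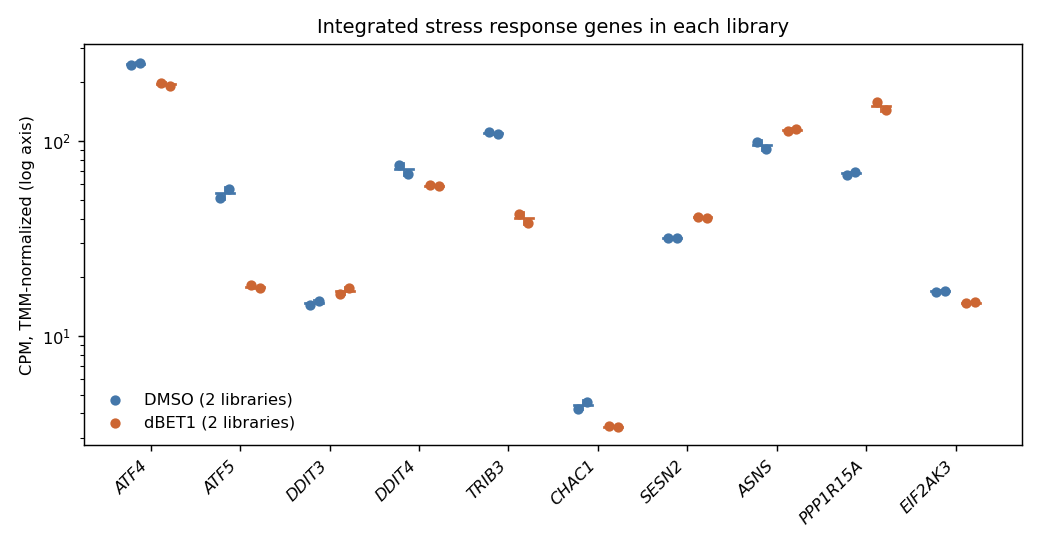
Normalized level of each of the 10 genes in each library (CPM, log axis), with DMSO in blue and dBET1 in orange, points for libraries, horizontal lines for means and vertical lines for the SD over 2 libraries. ATF5 and TRIB3 sit far lower with dBET1 and PPP1R15A higher, while the groups of the other 7 genes lie close together.

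EIF2AK3 encodes PERK, the kinase of the endoplasmic reticulum membrane that phosphorylates eIF2 when unfolded protein builds up. The gene (ENSG00000172071, chr2:88556741-88691518 of hg38, reverse strand) had 546 and 480 counts in the DMSO libraries, against 443 and 454 in the dBET1 libraries. That is 16.7 and 17.1 CPM against 14.8 and 14.9 CPM, so both dBET1 libraries were the lower ones. The log2 fold change of -0.19 (95% interval -0.49 to 0.11) did not pass the test (adjusted p = 0.241), and its sign turned to 0.020 when libraries were scaled by total counts only. EIF2AK3-DT, a divergent long noncoding RNA gene on the forward strand (chr2:88627539-88631821) that was singled out after its values were seen, was counted 26 and 14 times with DMSO and 174 and 142 times with dBET1. It rose by a log2 fold change of 2.99 (SE 0.326, adjusted p = 0.000198). It shares 0 annotated exon bases with EIF2AK3.

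The 3 other eIF2 kinases, which respond to heme shortage (EIF2AK1, HRI), double-stranded RNA (EIF2AK2, PKR) and uncharged tRNA (EIF2AK4, GCN2), went different ways. EIF2AK1, an enzyme best known from red cell precursors, rose from 483 ± 27.3 to 558 ± 2.45 CPM (SD, n = 2), a log2 fold change of 0.21 (SE 0.0717, adjusted p = 0.0393). EIF2AK4 fell from 38.5 ± 7.61 to 24.3 ± 2.21 CPM (SD, n = 2), a log2 fold change of -0.66 (SE 0.151, adjusted p = 0.00697). EIF2AK2 had a log2 fold change of 0.022 (95% interval -0.19 to 0.24). Per kilobase of the canonical transcript (RPKM), EIF2AK1 made up 86.0% of the summed kinase level with DMSO and 89.5% with dBET1, whereas EIF2AK3 made up 2.93% and 2.31%. The call of EIF2AK1 was lost in 7 of 11 alternatives, DESeq2 (a second count model), the replicate block and each dBET1 library left out among them.

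ATF4 is the bZIP factor at the center of the response. The gene (ENSG00000128272, chr22:39519695-39522683, forward strand) drew 8028 and 7103 counts in the controls and 5972 and 5873 after dBET1. Its normalized level was 246 and 253 CPM against 199 and 192 CPM, with each dBET1 library below each DMSO library. It fell by 0.35 on the log2 scale (SE 0.0699, adjusted p = 0.00381). Genes of this abundance class, the most abundant of 10 classes of equal size, had a median log2 fold change of -0.41, so the fall of ATF4 mRNA was no deeper than that of comparably abundant genes. The call was lost without dBET1 replicate 2 (adjusted p = 0.0727) and with total counts only (-0.14, adjusted p = 0.124). The processed pseudogene ATF4P3, looked at after its values were seen because it can draw reads from ATF4, held at most 24 counts in a library.

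ATF5 is a second bZIP factor of the program whose mRNA, like that of ATF4, carries upstream reading frames, and it is known for the mitochondrial stress response. The gene (ENSG00000169136, chr19:49928702-49933935, forward strand) held 1674 and 1605 counts with DMSO, against 549 and 535 with dBET1. These counts correspond to 51.3 and 57.1 CPM against 18.3 and 17.5 CPM, with a wide gap between the groups. Its log2 fold change was the lowest among the 10 genes, -1.60 (SE 0.106, 95% interval -1.84 to -1.35, adjusted p = 2.32e-05). It ranked 454 from the bottom among the tested genes, in an abundance class whose median was -0.094. ATF5 shares 565 exon bases with NUP62 on the opposite strand, and whether reads were counted by strand is not given in the sources used here, so some reads could belong to either gene. NUP62, chosen for this overlap, fell by less, from 270 ± 3.89 to 186 ± 2.47 CPM (SD, n = 2), a log2 fold change of -0.54 (SE 0.0687, adjusted p = 0.000429).

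DDIT3 encodes CHOP, the bZIP partner of the C/EBP factors that is known for promoting cell death under lasting stress. The gene (ENSG00000175197, chr12:57516588-57521737, reverse strand) was counted 468 and 423 times with DMSO and 492 and 536 times with dBET1. Its level was 14.3 and 15.1 CPM against 16.4 and 17.6 CPM, with the dBET1 libraries slightly above. The log2 fold change of 0.21 (95% interval -0.10 to 0.52) did not pass the test (adjusted p = 0.214), but it passed with total counts only (0.42, adjusted p = 0.0295). DDIT3 also shares exon bases with neighbours that moved in opposite directions. On the opposite strand it shares 355 with MARS1, the methionyl-tRNA synthetase gene, which was 349 and 332 CPM with DMSO and 119 and 127 CPM with dBET1 (log2 fold change -1.47, SE 0.0751, adjusted p = 1.14e-05). It shares 58 with MBD6, whose log2 fold change was 1.12 (SE 0.111, adjusted p = 0.000124). How many counts of DDIT3 came from these neighbours was not tested.

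The closest bZIP relatives of these factors spread over a wide range. ATF3, itself a target of ATF4 and of many other stress signals, drew 243 and 196 counts in the controls and 1216 and 1220 after dBET1. Its mean level of 7.21 ± 0.334 CPM rose to 40.2 ± 0.390 CPM (SD, n = 2), a log2 fold change of 2.48 (SE 0.120, adjusted p = 9.62e-06). CEBPG, a partner of ATF4 at amino acid response elements, fell from 57.2 ± 4.98 to 38.0 ± 1.46 CPM (SD, n = 2), a log2 fold change of -0.59 (SE 0.0994, adjusted p = 0.00167). CEBPB, another partner, had a log2 fold change of 0.036 (95% interval -0.26 to 0.34). Of the 14 tested bZIP partners in all, 3 were higher (21.4%) and 3 were lower (21.4%), beside 28.0% and 27.6% of all tested genes. The median of the bZIP partners was 0.11. The highest was CEBPA, the factor of granulocyte differentiation, at 5 and 7 counts in the controls and 58 and 54 after dBET1 (log2 fold change 3.19, SE 0.435, adjusted p = 0.000589). ATF6, the membrane-bound factor of a parallel unfolded protein pathway, was the second lowest at -0.41 (SE 0.106, adjusted p = 0.0129), a call lost without either dBET1 library and with total counts only.

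PPP1R15A encodes GADD34, the subunit that brings protein phosphatase 1 to eIF2 and so ends the response. The gene (ENSG00000087074, chr19:48872212-48876059, forward strand) held 2195 and 1944 counts with DMSO, against 4759 and 4398 with dBET1. The level was 67.3 and 69.2 CPM with DMSO and 159 and 144 CPM with dBET1, the clearest separation upwards among the 10 genes. Its log2 fold change was 1.15 (SE 0.0837, 95% interval 0.96 to 1.34, adjusted p = 3.30e-05), rank 3042 from the top, in an abundance class with a median of -0.32. The constitutive subunit gene PPP1R15B was at 133 ± 12.1 and 129 ± 3.12 CPM (SD, n = 2), a log2 fold change of -0.042 (95% interval -0.24 to 0.16). Per kilobase, PPP1R15A made up 53.4% ± 2.76 of the sum of both genes with DMSO and 72.3% ± 1.84 with dBET1 (SD, n = 2). The sum itself went from 54.4 to 89.0 RPKM.

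TRIB3 encodes a pseudokinase that ATF4 and CHOP induce and that in turn dampens both, as well as AKT signaling. The gene (ENSG00000101255, chr20:362835-397559, forward strand) was counted 3646 and 3049 times with DMSO and 1270 and 1155 times with dBET1. Its normalized level was 112 and 108 CPM with DMSO and 42.3 and 37.8 CPM with dBET1, and no library of one group came near the other group. The log2 fold change was -1.46 (SE 0.0912, 95% interval -1.67 to -1.25, adjusted p = 1.93e-05), rank 630 from the bottom. Its relatives TRIB1 and TRIB2 had log2 fold changes of 0.33 (95% interval -0.024 to 0.68, adjusted p = 0.100) and -0.23 (95% interval -0.43 to -0.032, adjusted p = 0.0509). TRIB3 made up 62.8% ± 0.0721 of the Tribbles sum in RPKM with DMSO and 40.8% ± 3.53 with dBET1 (SD, n = 2), while the sum went from 74.4 to 41.7 RPKM. With dBET1, TRIB2 held the larger share, 51.1% ± 3.40 (SD, n = 2). The feedback genes PPP1R15A and TRIB3 thus had changes of opposite sign, each past both thresholds.

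**Figure D2:**
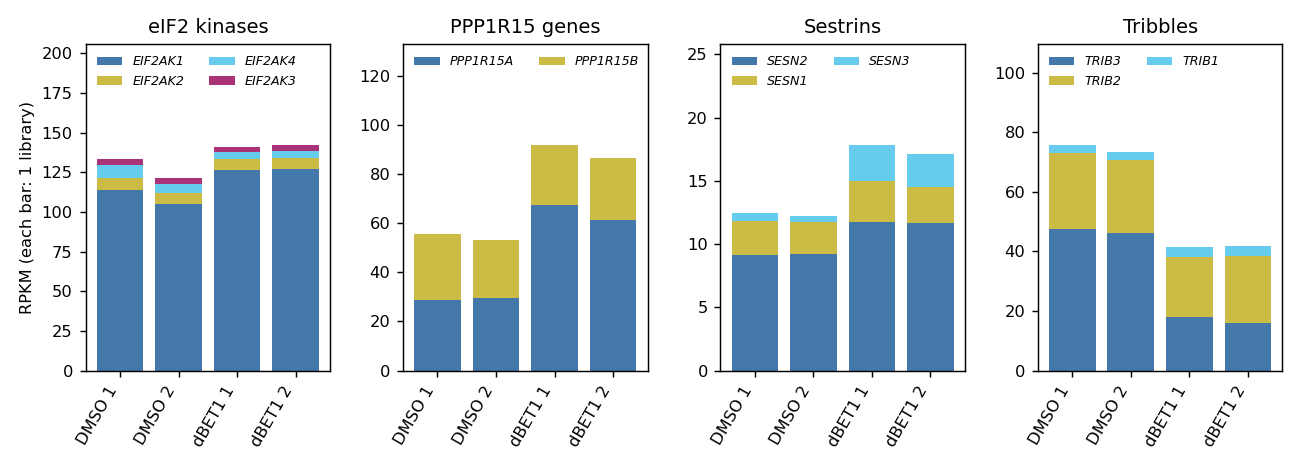
Stacked level per kilobase (RPKM) of each gene of 4 families in each library, 1 bar for a library, with axes that start at 0 and differ between panels. EIF2AK1 takes most of the kinase bars in every library, PPP1R15A grows with dBET1 beside a nearly level PPP1R15B, SESN3 adds to the sestrin bars, and TRIB3 shrinks.

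DDIT4 encodes REDD1, which restrains the growth kinase complex mTORC1 through the TSC1 and TSC2 proteins. The gene (ENSG00000168209, chr10:72273919-72276036, forward strand) drew 2462 and 1909 counts in the controls and 1787 and 1792 after dBET1. That is 75.4 and 67.9 CPM against 59.5 and 58.7 CPM, with the DMSO libraries farther apart than the dBET1 libraries. It fell by 0.28 on the log2 scale (SE 0.0897, adjusted p = 0.0304), close to the median of -0.32 in its abundance class. The call was lost without dBET1 replicate 1 (adjusted p = 0.174), without dBET1 replicate 2 (adjusted p = 0.191), with total counts only (-0.069) and under either other filter on low counts (adjusted p = 0.0503 and 0.0776). The relative DDIT4L was not tested, with 2 counts over all 4 libraries.

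SESN2 encodes sestrin 2, a leucine-binding protein that also restrains mTORC1. The gene (ENSG00000130766, chr1:28259518-28282491, forward strand) held 1036 and 898 counts with DMSO, against 1223 and 1233 with dBET1. Its level was 31.7 and 32.0 CPM against 40.7 and 40.4 CPM, with replicates nearly equal within each group. It rose by a log2 fold change of 0.35 (SE 0.0930, 95% interval 0.13 to 0.56, adjusted p = 0.0141). The call was lost without dBET1 replicate 1 (adjusted p = 0.134), without dBET1 replicate 2 (adjusted p = 0.125) and with no filter on low counts (adjusted p = 0.0531). SESN3, a relative better known as a FOXO target, was counted 190 and 128 times with DMSO and 811 and 753 times with dBET1. It rose by a log2 fold change of 2.31 (SE 0.168, adjusted p = 3.27e-05). SESN1, known as a p53 target, had a log2 fold change of 0.21 (95% interval -0.10 to 0.53). In RPKM the sestrin sum went from 12.4 ± 0.134 to 17.5 ± 0.507 (SD, n = 2), with the share of SESN2 at 74.5% and 67.2% and that of SESN3 at 4.39% and 15.5%.

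ASNS encodes asparagine synthetase, the classical target of ATF4 when amino acids run short. The gene (ENSG00000070669, chr7:97851677-97872542, reverse strand) drew 3244 and 2559 counts in the controls and 3397 and 3542 after dBET1. The level was 99.4 and 91.1 CPM against 113 and 116 CPM, with both dBET1 libraries higher. It rose by a log2 fold change of 0.27 (SE 0.0815, 95% interval 0.078 to 0.46, adjusted p = 0.0247), in an abundance class with a median of -0.32. The call was lost without dBET1 replicate 1 (adjusted p = 0.163), without dBET1 replicate 2 (adjusted p = 0.246) and with no filter on low counts (adjusted p = 0.120). A long noncoding RNA gene on the same strand, ENSG00000284707, shares 2415 exon bases with ASNS. Some reads counted under ASNS could therefore come from that gene, and how many was not tested.

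CHAC1 encodes an enzyme that cleaves glutathione and is induced by ATF4 together with CHOP or ATF3. It was the least abundant of the 10 genes (ENSG00000128965, chr15:40952962-40956512, forward strand), at 138 and 129 counts in the controls and 103 and 104 after dBET1. The level of 4.23 and 4.59 CPM with DMSO lay above the 3.43 and 3.41 CPM with dBET1. Its log2 fold change of -0.37 (SE 0.225, 95% interval -0.89 to 0.16) did not pass the test (adjusted p = 0.200), and at these counts the interval is the widest of the 10. CHAC2, a slower enzyme of the same kind, fell from 28.1 ± 0.137 to 15.1 ± 1.55 CPM (SD, n = 2), a log2 fold change of -0.90 (SE 0.126, adjusted p = 0.000695).

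Motif letters near the start sites are shown for the genes that held them, since ASNS and CHAC1 are textbook examples of a C/EBP-ATF response element (CARE), to which ATF4 binds with a C/EBP partner. Sequences are the 250 bases before the RefSeq start (build GRCh38.p14), written 5′ to 3′ on the strand of the gene, with the motif in capitals. The letters TGATGNAA, searched on both strands, were present in ASNS (chr7:97872409-97872658, reverse strand, starting 68 bases before the start site) and in CHAC1 (chr15:40953221-40953470, forward strand, as the reverse complement, starting 209 bases before it). The cAMP response element TGACGTCA, which reads the same on both strands, was present in PPP1R15A (chr19:48872171-48872420, forward strand, starting 58 bases before it).
ASNS: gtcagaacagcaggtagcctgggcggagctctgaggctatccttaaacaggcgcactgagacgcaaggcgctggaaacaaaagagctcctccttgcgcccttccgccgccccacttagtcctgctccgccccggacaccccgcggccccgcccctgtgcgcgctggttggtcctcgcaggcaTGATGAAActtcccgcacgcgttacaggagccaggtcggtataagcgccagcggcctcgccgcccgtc
CHAC1: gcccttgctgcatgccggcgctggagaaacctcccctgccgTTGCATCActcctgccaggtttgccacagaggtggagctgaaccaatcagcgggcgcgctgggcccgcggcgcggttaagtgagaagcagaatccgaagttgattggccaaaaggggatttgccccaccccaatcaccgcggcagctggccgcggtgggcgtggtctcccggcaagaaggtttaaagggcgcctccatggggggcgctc
PPP1R15A: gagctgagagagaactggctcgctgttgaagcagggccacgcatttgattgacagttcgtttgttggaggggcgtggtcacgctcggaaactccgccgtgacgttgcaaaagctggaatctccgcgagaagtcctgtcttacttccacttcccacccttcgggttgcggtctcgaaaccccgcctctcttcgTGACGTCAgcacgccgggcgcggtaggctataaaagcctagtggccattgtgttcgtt
In windows of 250 bases before to 50 bases after the start, the CARE letters occurred in 2 of the 10 genes and in 4.46% of 27305 genes, and the cAMP response element letters in 1 of the 10 and in 2.25%. The endoplasmic reticulum stress element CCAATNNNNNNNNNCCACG occurred in 0 of the 10 genes and in 0.0916% of all. The genes with CARE letters had log2 fold changes of 0.27 (ASNS) and -0.37 (CHAC1, not past the test), and the gene with TGACGTCA had 1.15. No match says only that these letters are not in this window, and a match is a description of the sequence.

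Levels can be set side by side only per kilobase. With DMSO the order in RPKM was ATF4 (176 ± 3.35), TRIB3 (46.7 ± 0.972), DDIT4 (41.1 ± 3.05), ASNS (39.9 ± 2.48), PPP1R15A (29.0 ± 0.574), ATF5 (27.0 ± 2.05), DDIT3 (16.3 ± 0.556), SESN2 (9.20 ± 0.0421), EIF2AK3 (3.73 ± 0.0542) and CHAC1 (2.90 ± 0.168), each as SD over 2 libraries. The SD ranges of DDIT4 and ASNS overlapped, as did those of PPP1R15A and ATF5. With dBET1 the order was ATF4 (138 ± 3.29), PPP1R15A (64.4 ± 4.36), ASNS (48.1 ± 0.843), DDIT4 (33.9 ± 0.340), DDIT3 (18.8 ± 0.912), TRIB3 (17.0 ± 1.34), SESN2 (11.7 ± 0.0733), ATF5 (8.92 ± 0.270), EIF2AK3 (3.27 ± 0.0174) and CHAC1 (2.25 ± 0.0117). The SD ranges of DDIT3 and TRIB3 overlapped there. ATF4 stayed at the top and EIF2AK3 and CHAC1 at the bottom in both groups, while TRIB3 went from the second to the sixth place and PPP1R15A from the fifth to the second.

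**Figure D3:**
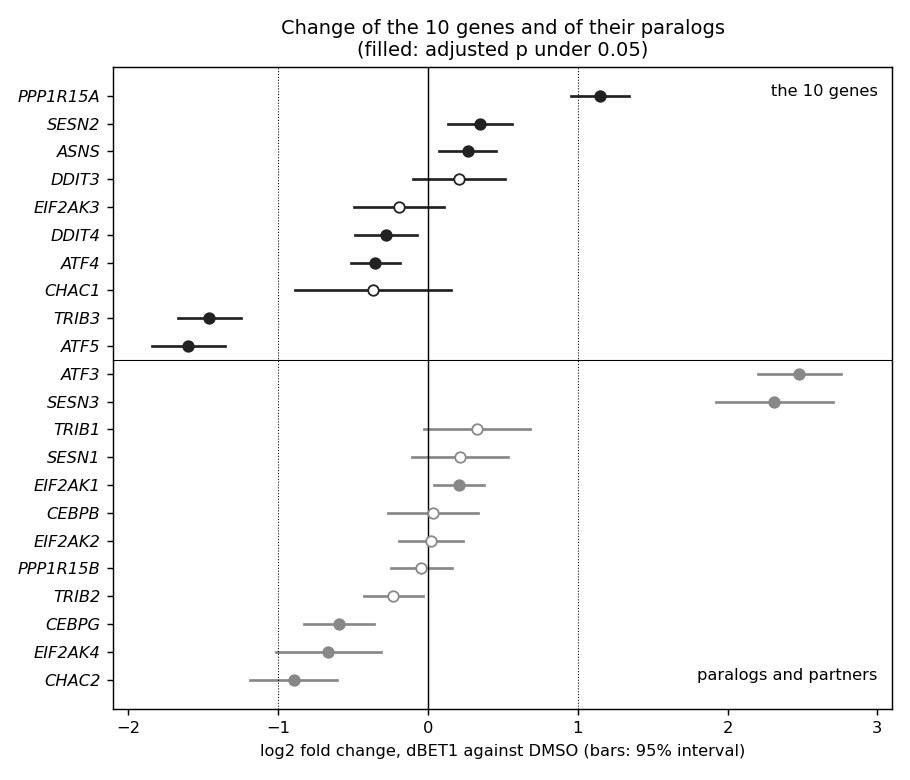
Log2 fold change (horizontal axis, dBET1 against DMSO, bars for 95% intervals) of the 10 genes, above the line, and of their paralogs and partners, below it, with filled points for an adjusted p under 0.05 and dotted lines at -1 and 1. ATF5 and TRIB3 lie below -1 and PPP1R15A above 1, and ATF3 and SESN3 lie above 2; EIF2AK3 turned to 0.020 with total counts only.

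Other genes of the pathway were taken from lists written from general knowledge, with earlier results of these data known. Of 163 listed genes, 150 were tested, and 31 were higher (20.7%) and 71 were lower (47.3%), with a median log2 fold change of -0.28, beside 28.0% and 27.6% of all tested genes. Of the 150, 76 were in the 2 most abundant of the 10 classes, whose medians were -0.32 and -0.41 over all genes. Among the 21 genes of eIF2 and its control, 2 were higher and 11 were lower, with a median of -0.56. The lowest were EIF2B3, a subunit of the exchange factor that reloads eIF2, which fell from 130 ± 0.352 to 50.1 ± 1.10 CPM (SD, n = 2; log2 fold change -1.37, adjusted p = 1.44e-05), and EIF2S2, the beta subunit of eIF2 itself, at -1.12 (adjusted p = 3.53e-05). The genes that rose were EIF2AK1 and DNAJC3, an inhibitor of PERK and PKR, at 0.54 (SE 0.0990, adjusted p = 0.00256). So 4 of the 5 EIF2B genes and all 3 EIF2S genes were lower, whereas the eIF2 kinases were mixed.

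Most biosynthetic targets of ATF4 were lower after dBET1. Of all tested genes, 28.0% were higher and 27.6% were lower. Most of the synthesis and tRNA charging targets were in the 2 most abundant classes, with medians of -0.32 and -0.41 over all genes. Of 14 tested amino acid synthesis targets, edgeR called 0 higher (0 at an unadjusted p under 0.05 as well, and 0 with DESeq2) and 10 lower, with a median of -0.45. PYCR1, which completes proline synthesis, fell from 307 ± 28.7 to 87.5 ± 0.0704 CPM (SD, n = 2; log2 fold change -1.81, adjusted p = 9.62e-06), and CBS, which starts the transsulfuration of homocysteine, had -1.61 (SE 0.124, adjusted p = 4.13e-05). ASNS, listed with the 10 genes and not here, had the opposite sign. Of 14 tRNA charging targets, edgeR called 0 higher (again 0 at an unadjusted p under 0.05, and 0 with DESeq2) and 13 lower, with a median of -0.84 and the lowest values in MARS1 (-1.47) and VARS1 (-1.40, SE 0.112, adjusted p = 4.69e-05). Of 10 tested amino acid transport targets, 1 was higher and 4 were lower. SLC3A2, the heavy chain shared by several exchangers, was the higher one at 0.27 (SE 0.0743, adjusted p = 0.0156), a call lost without either dBET1 library and with no filter on low counts. The lowest were SLC38A1 (-0.92, SE 0.0915, adjusted p = 0.000131) and SLC7A1 (-0.82, SE 0.0907, adjusted p = 0.000214), carriers of neutral and cationic amino acids.

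The stress effectors listed as other ATF4 and CHOP targets had the highest median of the pathway lists, 0.46 over 23 tested genes. The test called 12 of the 23 higher, a share of 52.2% against a background of 28.0% over the whole tested set. It called 6 lower, a share of 26.1% that lay close to its background of 27.6%. CDKN1A, the cell cycle inhibitor p21, held 44 and 41 counts with DMSO, against 370 and 420 with dBET1 (log2 fold change 3.21, SE 0.209, adjusted p = 2.21e-05). DUSP8, a phosphatase of stress kinases, had 11 and 8 counts against 62 and 54 (log2 fold change 2.60, SE 0.385, adjusted p = 0.000906). Both are also known targets of other pathways. The lowest were the secreted factors STC2 (-1.38, SE 0.153, adjusted p = 0.000213) and ADM2 (-1.16, SE 0.359, adjusted p = 0.0260), whose call was lost without DMSO replicate 2, without dBET1 replicate 1 and with no filter on low counts. The list holds ATF3 too, described above.

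**Figure D4:**
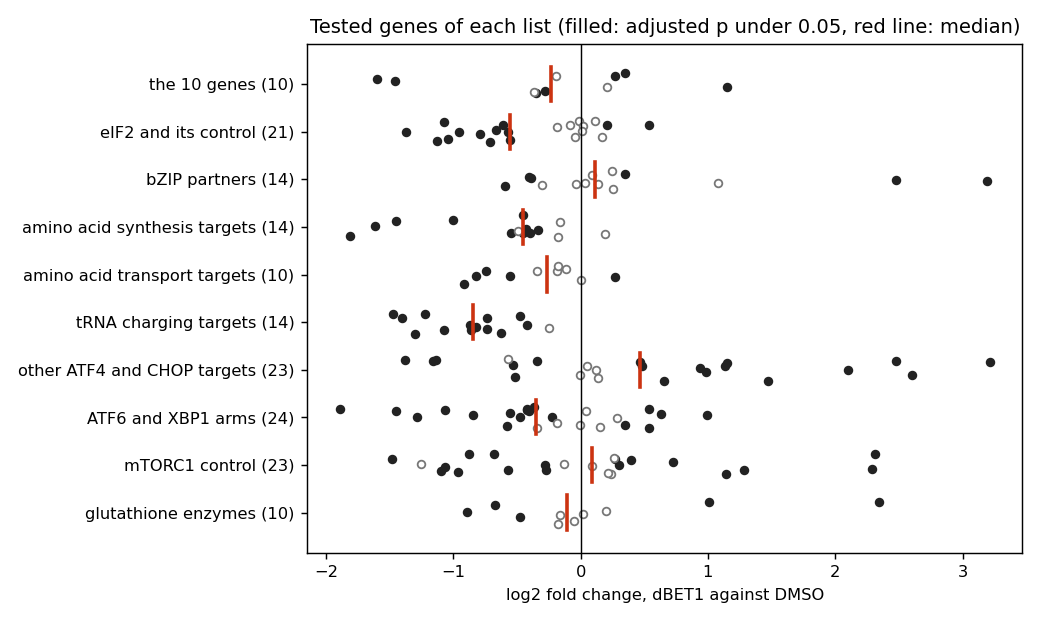
Log2 fold change (horizontal axis, dBET1 against DMSO) of each tested gene in 10 lists, the number of tested genes in brackets, with filled points for an adjusted p under 0.05 and a red line at the median. The amino acid synthesis and tRNA charging lists lie almost wholly below 0, with medians of -0.45 and -0.84, while the 10 genes spread from -1.60 to 1.15; the glutathione median changed sign with total counts only, to 0.10.

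In the parallel ATF6 and XBP1 arms of the unfolded protein response, 5 of 24 tested genes were higher (20.8%) and 13 were lower (54.2%). Of all tested genes, 28.0% were higher and 27.6% were lower, the background for each list in this paragraph. The median of the 24 genes was -0.35. Many of them were in the 2 most abundant classes, with medians of -0.32 and -0.41 over all genes. XBP1, the spliced factor of the IRE1 arm, fell from 52.7 ± 2.28 to 14.2 ± 0.288 CPM (SD, n = 2; log2 fold change -1.89, adjusted p = 1.30e-05), and SDF2L1, a chaperone cofactor, had -1.45 (SE 0.136, adjusted p = 9.58e-05). ERN1, which encodes IRE1, rose by 0.99 (SE 0.106, adjusted p = 0.000178), and EDEM1, a factor of protein disposal, by 0.63 (SE 0.0898, adjusted p = 0.000754). Of 23 tested genes of mTORC1 control, the process that DDIT4 and SESN2 act on, 8 were higher (34.8%) and 9 were lower (39.1%). Their median was 0.092 and became -0.014 without DMSO replicate 1 and -0.083 without dBET1 replicate 2. The highest were SESN3 and CASTOR2 (2.29, SE 0.199, adjusted p = 6.78e-05), which belongs to the arginine sensor family, and the lowest were the mTORC1 subunits AKT1S1 (-1.48, SE 0.0967, adjusted p = 2.25e-05) and MLST8 (-1.10, SE 0.0778, adjusted p = 2.92e-05). Of 10 tested glutathione enzymes, to which CHAC1 is related by function, 2 were higher and 3 were lower, with a median of -0.11 that became 0.10 with total counts only. The highest was GGACT (2.34, SE 0.290, adjusted p = 0.000367), a gamma-glutamylamine cyclotransferase that does not itself act on glutathione. Next came GCLC (1.01, SE 0.110, adjusted p = 0.000196), the catalytic subunit that starts glutathione synthesis. The lowest were CHAC2 and GSR (-0.68, SE 0.0702, adjusted p = 0.000157), the glutathione reductase.

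The calls of ATF5, TRIB3 and PPP1R15A held under each of the 11 alternatives, with log2 fold changes of -1.70 to -1.39, -1.55 to -1.25 and 1.07 to 1.36. Of the 11, ATF4 kept its call in 9, SESN2 and ASNS in 8 and DDIT4 in 6. CHAC1 and EIF2AK3 passed in 0 and DDIT3 in 1. Each of the 4 genes with a smaller called change lost its call without dBET1 replicate 2.

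**Figure D5:**
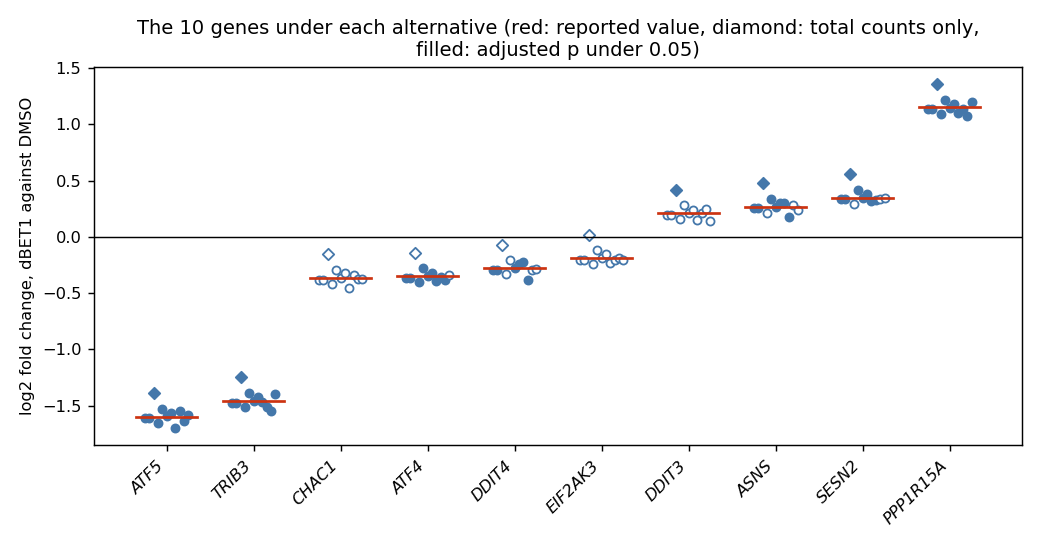
Log2 fold change of each of the 10 genes under each of 11 alternatives (points, filled where the adjusted p was under 0.05, diamonds for total counts only) and as reported (red lines). ATF5, TRIB3 and PPP1R15A are filled throughout, while EIF2AK3 changes sign, to 0.020, with total counts only.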

How the data were processed

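Total RNA of 4 samples was made into TruSeq libraries and sequenced. Reads were mapped by the authors with HISAT2 2.2.0 (build hg38), StringTie gave abundances, and the deposited values are whole-number counts per Ensembl gene that were not normalized. How abundances became counts, with which read length and strand setting, is not given in the sources used here. Counts could therefore be shared between overlapping or antisense genes.

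Columns were mapped to samples by treatment, time and replicate number (0 columns left out, 0 rows naming no gene). The control columns are abbreviated NC and were taken as the DMSO samples, the only other group at 24 h. Symbols and coordinates came from GENCODE 44 on hg38 (56105 of 64252 identifiers matched). Counts were filtered with filterByExpr, scaled with TMM factors (0.918 to 1.08) and tested with edgeR 4.0.16 (quasi-likelihood test, group alone, Benjamini-Hochberg over 17971 genes) in R 4.3.3 with limma 3.58.1. The biological coefficient of variation was 0.123. The adjusted p threshold of 0.05 and the log2 fold change limit of 1 are those of the study's methods, which used DESeq2. The SE of a log2 fold change is its size over the square root of F, and intervals are 95% intervals. RPKM used the canonical transcript length. Replicates differed beyond counting error (chi-square per degree of freedom 23.6 for DMSO and 8.14 for dBET1 over well-counted genes), so none is a copy. Totals were 28019956 to 34685645 counts. The printed counts and this depth could be 2 times the true number if reads were counted 2 times, hence the alternative with counts divided by 2.

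The 10 genes and the lists were chosen with earlier results of these data known. Named genes are the 10 genes, their paralogs and, in each other list, the 2 highest and 2 lowest changes past the test, while any other gene is said to have been chosen after its values were seen. The symbol C6orf48 was not matched. Promoter sequences are RefSeq windows (GRCh38.p14). For all 10 genes at least 1 window was found. The steps were tested on simulated data. Each result was recomputed with DESeq2 1.42.0, with DESeq2 size factors inside edgeR, with total counts only, with no filter beyond 1 count, with at least 10 counts in every sample, with a replicate block, with counts divided by 2 and without each library in turn.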

Additional observations from a re-analysis of the deposited data

How the results depend on the processing

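With 2 libraries in a group, SDs rest on 2 values and no single outlying library could be tested for. When each library was left out in turn, the number of the 10 genes called higher was 1 to 3 and the number called lower was 2 to 4. SESN2, ASNS and DDIT4 lost their call without either dBET1 library and ATF4 without dBET1 replicate 2, in fits that assume the lone library varies like the other group. With total counts only, 2 of the 10 genes were lower and 4 higher, 952 of all genes were lower past both thresholds, EIF2AK3 changed sign to 0.020, and 80.2% of calls past both thresholds were higher genes, against 66.4%. That scaling moved the median of all genes from 0.048 to 0.257. Relative to this median, EIF2AK3 was at -0.24, ATF4 at -0.40 and DDIT4 at -0.33 under either scaling. A change of scaling shifts all genes by nearly the same amount, so these values match by construction and are no test. Beside genes of their own abundance class, ATF4 and DDIT4 were near the median, as given above. With no filter on low counts, 1 of the 10 genes was higher, and with at least 10 counts in every sample 1940 of all genes were higher past both thresholds, where fewer genes were tested (15250). Other causes of these shifts were not tested. The replicate block left 3 of the 10 genes higher and 4 lower. Over all tested genes, same-numbered libraries did not deviate together (correlation -0.0075). With 2 libraries in a group, this cannot tell whether they shared a culture or batch.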

Other observations

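Several other genes of the lists were looked at after their values were seen. They include the autophagy genes SQSTM1, MAP1LC3B, ATG5 and ATG12, which are described one at a time. SQSTM1, the cargo receptor p62, rose from 172 ± 9.32 to 477 ± 4.26 CPM (SD, n = 2), a log2 fold change of 1.47 (SE 0.0739, adjusted p = 1.06e-05). MAP1LC3B, which encodes a protein of the autophagosome membrane, rose from 58.8 ± 2.64 to 117 ± 1.66 CPM (SD, n = 2). Its log2 fold change was 0.99 (SE 0.0813, adjusted p = 5.39e-05). ATG5 and ATG12 had log2 fold changes of -0.0050 and 0.12 and did not pass the test. GDF15, a secreted stress hormone, rose from 37.6 ± 1.55 to 83.3 ± 2.43 CPM (SD, n = 2). HSPA5, the main chaperone of the endoplasmic reticulum and a target shared by the ATF6 and ATF4 arms, fell from 460 ± 3.61 to 189 ± 4.28 CPM (SD, n = 2), a log2 fold change of -1.28 (SE 0.0688). TSC1 and TSC2, through which DDIT4 acts, had log2 fold changes of 1.15 and 0.73. TSC1 rose from 20.7 ± 0.348 to 45.9 ± 1.34 CPM and TSC2 from 81.2 ± 7.26 to 134 ± 7.36 CPM (SD, n = 2). Others of the mTORC1 control list fell, RHEB and RPTOR among them (log2 fold changes -0.68 and -0.87). That list was mixed, as given above. PHGDH, which starts serine synthesis and was the most abundant of the amino acid synthesis targets in CPM, fell from 1570 ± 97.5 to 1077 ± 51.6 CPM (SD, n = 2), a log2 fold change of -0.54 (SE 0.0757).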
